A study of Mus musculus with 16 samples.

Results

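Cytochrome P450 enzymes are heme-containing monooxygenases that insert an oxygen atom into fatty acids, sterols, retinoids, vitamin D, drugs and other lipophilic compounds. Most sit in the endoplasmic reticulum and take electrons from NADPH-cytochrome P450 reductase, while the mitochondrial members, which include the vitamin D enzymes Cyp24a1 and Cyp27b1, use adrenodoxin. In the kidney the proximal tubule holds most of the P450 activity. There Cyp4a enzymes hydroxylate arachidonic acid at its omega end, and certain Cyp2c and Cyp2j enzymes turn it into epoxides. Cyp27b1 and Cyp24a1 make and degrade the active vitamin D hormone. The genes described here are all those whose symbol is Cyp followed by a number, a letter and a number. They came to 96 of the 22180 genes with a probe set of their own, and all 96 were found under the same symbol in RefSeq (GRCm38.p6), 5 of them as pseudogenes. Where a gene had more than 1 probe set, which was so for 4 of the 96, the one with the highest mean over all arrays was used.

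RNA from kidney cortex of mice aged 3 months was hybridised to 16 Affymetrix arrays, 4 for each of 4 genotypes. Wild-type mice were C57BL/6. The Vhl mutants (VhlF/FKsp-Cre), the Pbrm1 mutants (Pbrm1F/FKsp-Cre) and the double mutants (VhlF/FPbrm1F/FKsp-Cre) all had a mixed background of C57BL/6, BALB/c and 129, so strain and genotype cannot be told apart in a comparison with wild type. F marks a loxP-flanked allele, and Ksp-Cre is driven by the promoter of Cdh16, a cadherin of tubule epithelium, so cells outside that epithelium keep both genes. In which tubule segments the genes were deleted was not examined, so loss in the proximal tubule is not shown. Vhl encodes the substrate-recognition part of a ubiquitin ligase for hypoxia-inducible factors, Pbrm1 a subunit of the PBAF chromatin remodeler, and the stated purpose was to look for early transcriptional events that may matter in the formation of clear cell renal cell carcinoma. All mice were on normal diet, and the labels give no treatment.

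Expression is given on the log2 scale of robust multi-array averaging (RMA). A mean below 3.72, the highest lower quartile among the 16 arrays, is treated as not above background, and for such genes only levels are reported. A gene was called where limma's Benjamini-Hochberg adjusted p over all 22180 genes was under 0.05, and differences are log2 values ± standard error from that fit, with n = 4 arrays a group. The array descriptions carry a number, 2 numbers to a group, that may stand for an animal. Nothing in the labels states that a group's 4 arrays are 4 animals, so p-values here reflect array-to-array spread that may be partly technical. If a number is 1 animal, each group holds 2 animals and n = 4 overstates the replication. The fit takes 1 correlation between arrays of a number (0.0838) for all genes. Standard errors and p-values may then be too small for genes whose numbers lie far apart. An example is Cyp4a14 in wild type, with a gap of 1.51 between numbers and at most 0.25 within a number. Fits averaged per number are given below. Replicates 1 and 2 share a number in the wild-type, Vhl mutant and Pbrm1 mutant groups, as do replicates 3 and 4. Each such pair bears the letters L and R. In the double mutants replicates 1 to 3 carry 1 number, and replicate 3 has the same description as replicate 2. Its values stood nearer to those of replicate 4: the root mean square log2 difference over all genes was 0.228 between replicates 3 and 4, against 0.269 between 2 and 3, 0.274 between 1 and 3, and 0.210 between 1 and 2.

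The probe set of Vhl lay at 6.25 to 6.30 in Vhl mutants and 6.08 to 6.51 in double mutants, within or overlapping the 6.23 to 6.55 of wild type. That of Pbrm1 lay at 8.15 to 8.24 in Pbrm1 mutants, 8.02 to 8.19 in double mutants and 8.14 to 8.26 in wild type, with no call for either gene. Where their probes lie relative to the loxP-flanked part is not given, so these values do not check the genotype labels. The tissue label was checked with markers. The 14 proximal tubule markers averaged between 11.54 and 11.80 on every array, with ranges of 11.74 to 11.77 in wild type, 11.61 to 11.73 in Vhl mutants, 11.74 to 11.80 in Pbrm1 mutants and 11.54 to 11.63 in double mutants. Of the 11 adrenal cortex markers tested, 5 were below the low limit in all groups (Mc2r, Hsd3b1, Cyp11b1, Cyp11b2 and Cyp21a1), and the list averaged 4.31 to 4.50. The 8 liver markers averaged 5.63 to 6.23. The 12 macrophage markers averaged 6.00 to 6.26 in wild-type and 6.66 to 7.08 in Vhl mutant arrays. They averaged 5.93 to 6.08 in Pbrm1 mutant and 6.80 to 7.08 in double mutant arrays. Against wild type, 10, 1 and 8 of them rose in the Vhl, Pbrm1 and double mutants. Of all genes, 3.84%, 4.04% and 12.2% were called in either direction in these comparisons. Xist lay between 2.92 and 3.33 on all 16 arrays and the mean of 3 Y-linked genes between 6.84 and 7.32, the pattern of male RNA. The 8 adipose markers reached list means of 5.5, 5.84 and 5.46 in 1 array each of the Vhl, Pbrm1 and double mutants, with 4.67 to 4.94 in wild type, and called members that were lost without these 3 arrays are counted below. In cortex RNA of this kind, fewer cells of a type and less RNA per cell cannot be told apart, and the part of these markers in the P450 results was not tested.

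Of the 96 P450 genes, 52 had a mean above the low limit in all 4 groups, 40 in none, and 4 (Cyp2c39, Cyp3a11, Cyp4f14 and Cyp4f39) in some. The genes not above background included 12 of 15 Cyp2c genes, 6 of 7 Cyp3a genes and 4 of 5 steroid hormone genes, among them Cyp17a1, the androgen-forming lyase, as well as Cyp7a1, the rate-limiting enzyme of bile acid synthesis. All 4 vitamin D genes, 8 of 10 Cyp2d genes, 6 of 7 Cyp2j genes and 4 of 6 Cyp4a genes were above it throughout. At least 1 of 6 comparisons called 21 of the 96, and 20 of these were above the low limit in every group. The share of all genes called in at least 1 comparison was not computed, so this count cannot be read as high or low. The exception was Cyp3a25, which lay between 1.83 and 2.9 on all 16 arrays and was called in double mutants against wild type, so that only its levels are given. The other 75 genes were called in no comparison.

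Several P450 genes are near-identical copies, and the array cannot always separate them. A total of 6 probe sets matched more than 1 gene with a P450 among them and were left out. They include the probe sets shared by Cyp4a10 and Cyp4a31 and by Cyp4a32 and Cyp4a10, so that Cyp4a10 and Cyp4a32, both inducible fatty acid hydroxylases, have no value here. Cyp2c44 is the older name of Cyp2c23, and its values stand under that symbol. Cyp4a12a and Cyp4a12b, and the Cyp2d genes among themselves, may also share hybridisation, which was not tested. In RefSeq order on chromosome 4, Cyp4a29, Cyp4a12a, Cyp4a12b, Cyp4a30b, Cyp4a14, Cyp4a10, Cyp4a31, Cyp4b1-ps2, Cyp4a32 and Cyp4b1 follow one another, with further pseudogenes between them.

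RefSeq promoter sequence was at hand for 70 of the 96 genes, among them Cyp2j13 and Cyp2j9. For both genes the differences between genotypes did not add up in the double mutants (values below). Their 250 bases before the transcription start are shown because both hold the letters GCGTG, a core to which hypoxia-inducible factors can bind, printed in capitals. Cyp2j13 lies on the minus strand at chr4:96077541-96077790 and Cyp2j9 on the minus strand at chr4:96591486-96591735, both in GRCm38.p6 and written 5′ to 3′.
Cyp2j13: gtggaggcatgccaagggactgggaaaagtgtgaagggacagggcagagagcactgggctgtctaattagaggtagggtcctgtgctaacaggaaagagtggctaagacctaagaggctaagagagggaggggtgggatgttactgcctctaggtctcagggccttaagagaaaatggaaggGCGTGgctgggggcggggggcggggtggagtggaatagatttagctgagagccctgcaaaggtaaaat
Cyp2j9: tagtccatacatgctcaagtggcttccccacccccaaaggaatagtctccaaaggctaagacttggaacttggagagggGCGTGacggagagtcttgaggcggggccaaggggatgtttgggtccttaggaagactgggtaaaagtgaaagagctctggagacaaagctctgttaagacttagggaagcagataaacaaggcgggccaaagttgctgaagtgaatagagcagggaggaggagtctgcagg

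The match begins 68 bases before the start in Cyp2j13 and 171 bases before it in Cyp2j9, on the strand of the gene in both. The search covered both strands for GCGTG, for ACGTG, the other form of the same core, and for AGGTCA, the core element of many nuclear receptors. GCGTG was in 14 of the 70 P450 promoters and in 28.2% of the 32851 promoters of that length in the table. ACGTG was in 5 of the 70 and in 16.6% of all, and AGGTCA in 16 of the 70 and in 14% of all. These matches are a description of letters and not of binding. No promoter sequence was at hand for Cyp4a12a, Cyp4a12b, Cyp4a14, Cyp2c23, Cyp2d12, Cyp2d22 or Cyp7b1, among others, so these genes were not searched.

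Vhl mutants against wild type asks what loss of Vhl alone goes with. Of the 96 P450 genes, 2 rose and 3 fell, a share of 5.21%, against 3.84% of all genes called in either direction (2.04% higher and 1.79% lower). The median difference over the 96 was 0.01, against -0.01 over all genes. The Cyp4a family held both of the genes that rose (Cyp4a14 and Cyp4a31) and the 1 that moved most (Cyp4a12a, which fell); Cyp2j13 and Cyp4b1 also fell.

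Cyp4a12a, the main arachidonic acid omega-hydroxylase of male mouse kidney, stood at 6.81, 6.85, 6.56 and 5.94 in the wild-type arrays, replicates 1 to 4 in order. In the Vhl mutant arrays it stood at 3.34, 4.45, 4.0 and 5.0, in Pbrm1 mutants at 7.63, 7.84, 7.91 and 7.89, and in double mutants at 7.02, 6.92, 7.53 and 7.27. The Vhl mutant arrays were all below, and the other mutant arrays all above, the wild-type arrays, with no overlap, and 1 Vhl mutant array lay under the low limit. From wild type, Cyp4a12a fell by 2.34 ± 0.26 in Vhl mutants, a 5.06-fold difference (adjusted p = 2.3e-05), and this call held under all 38 alternative settings tried. In Pbrm1 mutants it rose by 1.28 ± 0.26 (2.43-fold, adjusted p = 0.0066). That call was lost without wild-type replicates 3 and 4 (0.99, adjusted p = 0.067) and without Pbrm1 mutant replicates 3 and 4 (1.20, adjusted p = 0.086).

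Cyp4a12b, its near-identical neighbour, read 7.45, 7.58, 7.71 and 7.78 in wild-type arrays and 7.12, 7.39, 6.88 and 6.83 in Vhl mutant arrays. The groups did not overlap, but the difference of -0.57 ± 0.17 missed the threshold (adjusted p = 0.058). Pbrm1 mutant arrays read 7.42, 7.57, 8.27 and 8.03, and double mutant arrays 7.02, 6.94, 7.23 and 7.52. Within an array, Cyp4a12a minus Cyp4a12b was -1.09 ± 0.54 (SD, n = 4) in wild type, against -2.86 ± 0.80 in Vhl mutants. This ratio thus differed by -1.77, with a two-sided exact permutation p of 0.0571, while in Pbrm1 mutants (-0.01 ± 0.30) it differed by 1.09 with the smallest p this design allows, 0.0286. Adjusted over these 2 tests both values are 0.0571. The ratio was not tested in double mutants, where Cyp4a12a and Cyp4a12b covered similar ranges, unlike in wild type. A difference from wild type is therefore not shown to be particular to Pbrm1 mutants. The test takes the 4 arrays of a group as independent: with the 2 description numbers of a group as the units, no p could go below 0.333. The ratio in Vhl mutants also includes the array whose Cyp4a12a value lies under the low limit.

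Cyp4a14, a fatty acid hydroxylase induced through PPAR-alpha, went in the opposite direction to Cyp4a12a in both single mutants. It measured 7.02, 6.98, 8.63 and 8.39 in wild type, 10.02, 10.20, 8.90 and 9.05 in Vhl mutants, 6.35, 6.21, 6.13 and 6.16 in Pbrm1 mutants, and 7.44, 7.45, 7.59 and 7.13 in double mutants. Every Vhl mutant array was above every wild-type array and every Pbrm1 mutant array below, but within wild type the arrays of the one number sat 1.51 below those of the other, and within Vhl mutants the gap was 1.14. Against wild type Cyp4a14 rose by 1.79 ± 0.31 in Vhl mutants (3.45-fold, adjusted p = 0.0021) and fell by 1.54 ± 0.31 in Pbrm1 mutants (2.92-fold, adjusted p = 0.0063).

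Averaging the arrays of a number ended both calls, with adjusted p = 0.083 for Vhl mutants and 0.12 for Pbrm1 mutants. The rise in Vhl mutants was 1.03 (adjusted p = 0.057) without wild-type replicates 1 and 2 and 1.22 (adjusted p = 0.051) without Vhl mutant replicates 1 and 2. The fall in Pbrm1 mutants measured -0.79 (adjusted p = 0.10) without wild-type replicates 3 and 4 and -1.47 (adjusted p = 0.081) without Pbrm1 mutant replicates 3 and 4.

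Cyp4a31, the other Cyp4a gene called, rose by 0.32 ± 0.08 in Vhl mutants (adjusted p = 0.027), from 10.73, 10.99, 11.25 and 11.18 in wild type to 11.43, 11.37, 11.25 and 11.40. These groups overlap. The call ended without wild-type replicate 1 (0.23) or 2, or without Vhl mutant replicate 1, 2 or 4, at adjusted p between 0.055 and 0.071, and without both wild-type replicates 1 and 2 the difference was 0.15 (adjusted p = 0.30).

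**Figure D1:**
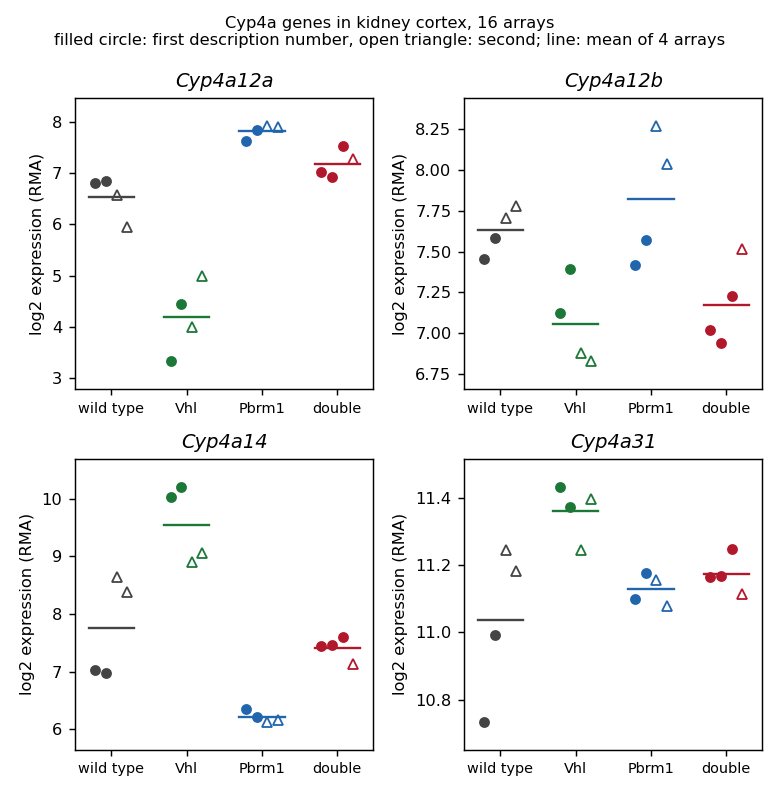
Log2 expression of 4 Cyp4a genes on each of the 16 arrays (vertical axis, its range set for each gene) by genotype (horizontal axis); filled circles are arrays with the one description number of a group, open triangles those with the other, and lines are means of 4 arrays. Cyp4a12a was lowest in Vhl mutants (3.34 to 5.0) and highest in Pbrm1 mutants (7.63 to 7.91), Cyp4a14 showed the reverse order, and the wild-type Cyp4a14 arrays fell into a pair near 7.0 and a pair above 8.3.

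Among the genes outside Cyp4a, Cyp2j13 measured 10.87, 10.83, 10.66 and 10.59 in wild type, 9.90, 10.26, 10.10 and 10.28 in Vhl mutants, 10.81, 10.86, 10.84 and 10.97 in Pbrm1 mutants and 10.64, 10.71, 10.86 and 10.80 in double mutants. Only the Vhl mutant arrays stood apart from wild type, below all of them. Cyp2j13 fell by 0.60 ± 0.08 there (1.51-fold, adjusted p = 1.8e-04), and the call held under all 38 alternatives. Cyp4b1, a fatty acid and xenobiotic hydroxylase next to the Cyp4a genes, fell by 0.23 ± 0.05 (adjusted p = 0.013), from 12.73, 12.74, 12.68 and 12.64 in wild type to 12.52, 12.58, 12.35 and 12.43. Its call ended with arrays averaged per number (adjusted p = 0.16), without the trend in variance (adjusted p = 0.095), without wild-type replicates 1 and 2 (-0.19, adjusted p = 0.16), and without Vhl mutant replicates 3 and 4 (-0.15, adjusted p = 0.12).

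In Pbrm1 mutants against wild type, 5 P450 genes rose and 2 fell, or 7.29% of the 96 against 4.04% of all genes (1.59% higher and 2.45% lower). The median difference was 0.06, against -0.01 over all genes. Cyp2c23 and Cyp4a14 fell, and Cyp4a12a, Cyp2d12, Cyp2d9, Cyp2j9 and Cyp2e1 rose. These comparisons with wild type use the same wild-type arrays as those of the Vhl and double mutants.

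The largest fall was that of Cyp2c23, the main arachidonic acid epoxygenase of the mouse kidney tubule. It stood at 7.66, 7.82, 7.51 and 7.49 in wild type, 7.42, 7.65, 8.66 and 8.77 in Vhl mutants, 5.89, 5.63, 5.04 and 5.30 in Pbrm1 mutants, and 6.29, 6.35, 6.14 and 6.25 in double mutants. All arrays of Pbrm1 and double mutants lay below all wild-type arrays, while those of the Vhl mutants overlapped wild type and split by number into a lower and a higher pair, 1.18 apart. Cyp2c23 fell by 2.16 ± 0.23 in Pbrm1 mutants (4.45-fold, adjusted p = 6.8e-06) and by 1.36 ± 0.23 in double mutants (2.57-fold, adjusted p = 3.9e-04), and both calls held under all 38 alternatives.

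Cyp2d12, a Cyp2d gene of the cluster on chromosome 15, was at 8.61, 8.67, 8.80 and 8.58 in wild type and at 9.62, 9.82, 9.98 and 9.96 in Pbrm1 mutants. In Vhl mutants it was at 7.92, 8.02, 8.67 and 9.07, and in double mutants at 8.67, 8.76, 8.60 and 8.32. The Pbrm1 mutant arrays exceeded all 12 others. Cyp2d12 rose by 1.18 ± 0.18 (2.27-fold, adjusted p = 3.5e-04) under all alternatives. Cyp2d9, a steroid hydroxylase of male mouse liver, rose by 0.51 ± 0.13 in Pbrm1 mutants (adjusted p = 0.025), from 7.13, 6.95, 6.75 and 6.91 to 7.58, 7.46, 7.38 and 7.38, without overlap. Leaving out wild-type replicate 3 or Pbrm1 mutant replicate 1 or 2 gave adjusted p of 0.068, 0.070 and 0.052 for Cyp2d9, and averaging per number gave 0.11.

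Cyp2j9 measured 6.80, 6.57, 6.46 and 6.60 in wild type, 6.74, 6.98, 6.90 and 7.04 in Vhl mutants, 6.94, 6.97, 7.29 and 7.23 in Pbrm1 mutants, and 6.16, 6.57, 6.64 and 6.45 in double mutants. The Pbrm1 mutant arrays were above the wild-type arrays, and Cyp2j9 rose by 0.50 ± 0.11 (adjusted p = 0.015), a call that ended without Pbrm1 mutant replicate 3 (0.44, adjusted p = 0.056), with wild-type replicates 3 and 4 left out (0.42, adjusted p = 0.099) or with arrays averaged per number (adjusted p = 0.071). Cyp2e1, which oxidizes ethanol and small solvents, rose by 0.18 ± 0.05 (adjusted p = 0.035), from 12.46, 12.38, 12.47 and 12.35 to 12.62, 12.56, 12.64 and 12.58. The call of Cyp2e1 held under 23 of 38 alternatives and was 0.08 (adjusted p = 0.38) after quantile normalization. It ended without wild-type replicate 2 or 4 or Pbrm1 mutant replicate 1, 3 or 4.

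**Figure D2:**
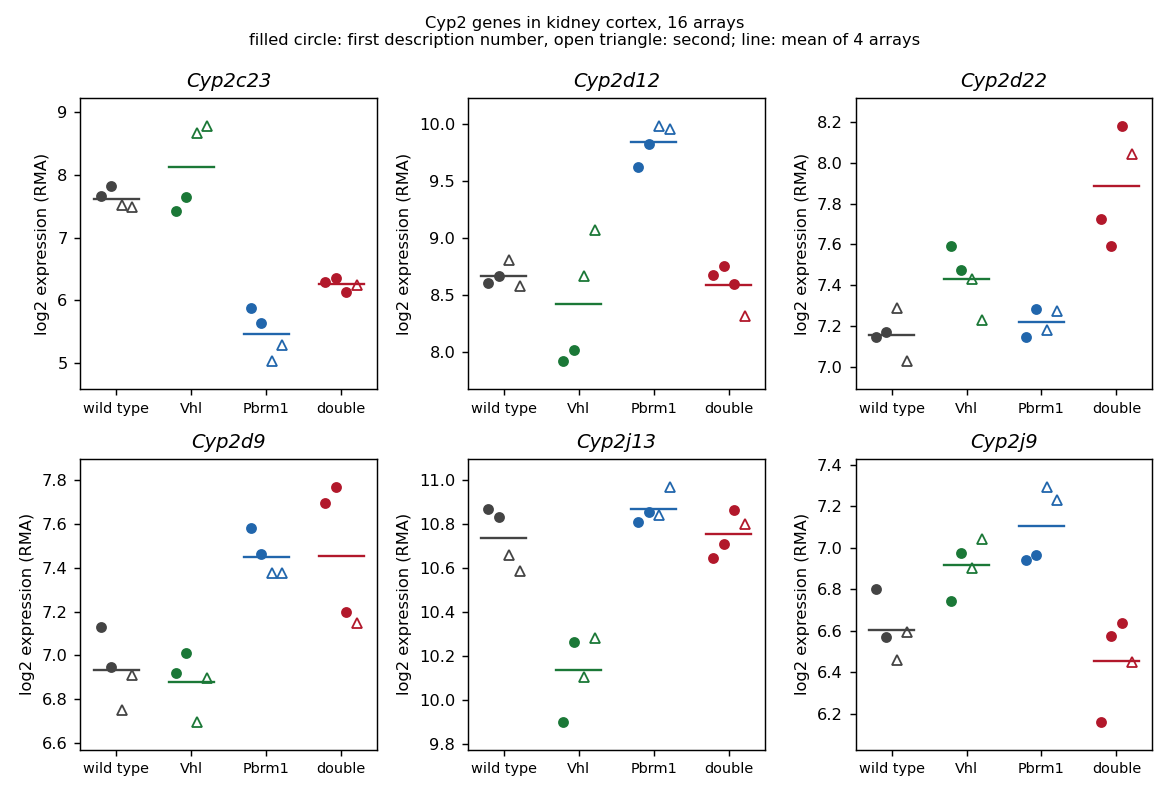
Log2 expression of Cyp2 genes on each of the 16 arrays (vertical axis, its range set for each gene) by genotype (horizontal axis), with symbols for the description numbers of a group and lines at the means of 4 arrays. Cyp2c23 was low in Pbrm1 and double mutants (5.04 to 6.35 against 7.49 to 7.82 in wild type), Cyp2d12 was highest in Pbrm1 mutants (9.62 to 9.98), and Cyp2j13 was lowest in Vhl mutants (9.90 to 10.28).

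Double mutants against wild type called 4 P450 genes as higher and 4 as lower, or 8.33% of the 96, against 12.2% of all genes (6.64% higher and 5.56% lower), and a median difference of -0.06 against -0.02 over all genes. Cyp2c23, given above, Cyp2u1 and Cyp4b1 fell, and the fourth gene called as lower was Cyp3a25, whose means lie below the low limit in all groups. Cyp2d22, Cyp7b1, Cyp2d9 and Cyp2d26 rose. Cyp4a12a and Cyp4a14, which differed from wild type in both single mutants, were not called here: their differences were 0.65 (adjusted p = 0.13) and -0.36 (adjusted p = 0.56).

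Cyp2d22, a drug-metabolizing Cyp2d gene, read 7.15, 7.17, 7.29 and 7.03 in wild type, 7.59, 7.47, 7.43 and 7.23 in Vhl mutants, 7.15, 7.28, 7.18 and 7.27 in Pbrm1 mutants, and 7.73, 7.59, 8.18 and 8.04 in double mutants. The double mutant arrays overlapped no wild-type or Pbrm1 mutant array, and the lowest of them equalled the highest Vhl mutant array to 2 decimals. Cyp2d22 rose by 0.73 ± 0.11 against wild type (1.66-fold, adjusted p = 1.4e-04) under all 38 alternatives.

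Cyp7b1, which hydroxylates oxysterols and neurosteroids, stood at 9.70, 9.99, 10.09 and 10.07 in wild type, 10.09, 9.78, 9.91 and 9.81 in Vhl mutants, 10.12, 10.25, 10.12 and 10.17 in Pbrm1 mutants, and 10.17, 10.16, 10.87 and 10.93 in double mutants. The double mutant arrays were all above the wild-type ones and formed a lower and a higher pair. Its rise of 0.59 ± 0.15 in double mutants (1.5-fold, adjusted p = 0.011) came mostly from replicates 3 and 4. Without double mutant replicate 4 it was 0.44 (adjusted p = 0.063), and without wild-type replicates 1 and 2 it was 0.46 (adjusted p = 0.11). Cyp2a4, a testosterone hydroxylase, had the same split in the double mutants, at 9.18, 9.15, 10.50 and 10.38, with a difference from wild type of 0.22 ± 0.24 (adjusted p = 0.65).

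Cyp2d9 stood at 7.70, 7.77, 7.2 and 7.15 in double mutants and at 6.92, 7.01, 6.70 and 6.90 in Vhl mutants. It rose by 0.51 ± 0.13 against wild type (adjusted p = 0.012), with replicates 3 and 4 the lower pair this time, and without double mutant replicates 1 to 3 the difference was 0.21 (adjusted p = 0.56). Cyp2d26 rose by 0.31 ± 0.08 (adjusted p = 0.012), from 9.60, 9.35, 9.63 and 9.48 to 9.77, 9.86, 9.93 and 9.76. Cyp2u1, a fatty acid hydroxylase, fell by 0.33 ± 0.08 (adjusted p = 0.011), from 7.04, 7.01, 6.73 and 6.93 to 6.68, 6.53, 6.66 and 6.54. Neither pair of groups overlapped, but averaging per number gave adjusted p = 0.060 for Cyp2d26 and 0.058 for Cyp2u1, and leaving out wild-type replicates 1 and 2 gave 0.065 and 0.15. Cyp4b1 fell by 0.19 ± 0.05 (adjusted p = 0.016), to 12.43, 12.48, 12.61 and 12.51, and was at adjusted p = 0.052 without double mutant replicate 1.

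Against Vhl mutants, the double mutants show what goes with the added loss of Pbrm1 where both groups have a mixed background. The labels name the same strains for all mutant groups but not their shares, so strain may still differ between them. Here 7 P450 genes were higher and 3 lower, or 10.4% of the 96 against 6.35% of all genes (3.80% higher and 2.55% lower), and the median difference was -0.08 against -0.01. Cyp4a12a was higher by 2.99 ± 0.26 (7.93-fold, adjusted p = 3.0e-07), and Cyp4a14 lower by 2.15 ± 0.32 (4.44-fold, adjusted p = 1.8e-04). Cyp2c23 was lower by 1.87 ± 0.23 (3.66-fold, adjusted p = 2.4e-05) and Cyp2j13 higher by 0.62 ± 0.08 (adjusted p = 6.5e-05). These 4 calls held under all 38 alternatives, and none of the 4 had overlapping groups.

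The other 6 differences were smaller. Cyp7b1 was higher by 0.66 ± 0.15 (adjusted p = 0.0088), Cyp2d9 by 0.56, Cyp2d22 by 0.46, Cyp4f16 by 0.44 and Cyp2e1 by 0.23, and Cyp2j9 was lower by 0.46, with adjusted p between 0.0065 and 0.039. Cyp4f16, of a family that hydroxylates leukotrienes, stood at 5.38, 5.12, 5.49 and 5.29 in double mutants and at 5.02, 4.76, 4.79 and 4.92 in Vhl mutants. Its call was the least stable of the 6 and ended without any of 6 single arrays (double mutant replicate 1, 3 or 4, or Vhl mutant replicate 2, 3 or 4). Without the number of Vhl mutant replicates 3 and 4, Cyp7b1 was at adjusted p = 0.057, Cyp2d9 at 0.073, Cyp2d22 at 0.13 and Cyp2j9 at 0.11. Single arrays also ended the calls of Cyp2d22 (double mutant replicate 3 or 4, or Vhl mutant replicate 4) and Cyp2j9 (double mutant replicate 1 or Vhl mutant replicate 2), at adjusted p of 0.050 to 0.071. Without double mutant replicates 1 to 3, Cyp2d9 was at 0.27 (adjusted p = 0.54) and Cyp2e1 at 0.22 (adjusted p = 0.19).

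Against Pbrm1 mutants, where the added loss is that of Vhl, 7 P450 genes were higher in double mutants and 6 lower, or 13.5% of the 96 against 10.2% of all genes (6.82% higher and 3.37% lower), with a median difference of -0.12 against -0.02. Cyp2d12 was lower by 1.27 ± 0.18 (2.42-fold, adjusted p = 4.5e-05), Cyp2j9 by 0.65 ± 0.12 (adjusted p = 5.9e-04), Cyp2u1 by 0.44 (adjusted p = 0.0011) and Cyp4b1 by 0.29 (adjusted p = 5.3e-04). Cyp2d22 was higher by 0.67 (adjusted p = 3.9e-04), Cyp2s1, a P450 of epithelia, by 0.55 (adjusted p = 0.0014), and Cyp4v3, a fatty acid omega-hydroxylase, by 0.52 (adjusted p = 0.0069). The first 5 of these 7 held under all 38 alternatives, and Cyp2s1 under 37.

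Cyp2s1 measured 7.12, 7.45, 6.96 and 6.96 in double mutants against 6.67, 6.39, 6.59 and 6.61 in Pbrm1 mutants, and Cyp4v3 5.54, 5.40, 5.65 and 5.61 against 5.19, 4.92, 5.03 and 4.98. Neither overlapped. In this comparison Cyp4a14 was higher by 1.18 ± 0.32 (2.27-fold, adjusted p = 0.018) and Cyp2c23 by 0.79 (adjusted p = 0.033). Without Pbrm1 mutant replicates 3 and 4 Cyp4a14 was at 1.12 (adjusted p = 0.13) and Cyp2c23 at 0.50 (adjusted p = 0.37). Cyp2c23 also lost its call without double mutant replicate 1, 2 or 4 or Pbrm1 mutant replicate 3 or 4, at adjusted p of 0.064 to 0.11. Without double mutant replicates 1 to 3, Cyp4a14 was at 0.92 (adjusted p = 0.46), and Cyp2s1 and Cyp4v3 were both at adjusted p = 0.13. Cyp1b1, which oxidizes estrogens and polycyclic hydrocarbons, was higher by 0.43 (adjusted p = 0.026), Cyp2d26 was higher by 0.27 (adjusted p = 0.033) and Cyp2w1 lower by 0.43 (adjusted p = 0.040).

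Cyp4a12b was lower by 0.64 ± 0.17 (adjusted p = 0.016), with overlapping groups, by 0.50 (adjusted p = 0.065) without Pbrm1 mutant replicate 3, by 0.58 (adjusted p = 0.052) without replicate 4 and by 0.31 (adjusted p = 0.34) without both. Cyp1b1 lost its call without double mutant replicate 1 (0.32, adjusted p = 0.082) or 2, or Pbrm1 mutant replicate 2 or 4. Cyp2d26 lost its call without double mutant replicate 2 or 3 or Pbrm1 mutant replicate 3 (0.22, adjusted p = 0.11) or 4. Cyp2w1 lost it without any 1 of double mutant replicates 1 to 3, of the 4 Pbrm1 mutant arrays (-0.37, adjusted p = 0.11, without replicate 2), or Vhl mutant replicate 2.

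The interaction asks whether the double mutant difference from wild type departs from the sum of the single mutant differences. Because wild type alone lacked the mixed background, the interaction cannot tell strain from genotype. It was called for 4 P450 genes, 2 in each direction, or 4.17% of the 96 against 2.63% of all genes (1.78% above and 0.852% below the sum). Cyp4a12a was 1.71 ± 0.37 above the sum (adjusted p = 0.016): -2.34 and 1.28 for the single mutants, and 0.65 for the double mutants. For Cyp2j13 the interaction was 0.49 ± 0.12 (adjusted p = 0.029). Cyp2j9 was 0.96 ± 0.16 below the sum, with an interaction of -0.96 (adjusted p = 0.0026), with differences from wild type of 0.31 in Vhl mutants (adjusted p = 0.15), 0.50 in Pbrm1 mutants and -0.15 in double mutants (adjusted p = 0.50). Cyp2d12 had an interaction of -1.03 ± 0.25 (adjusted p = 0.030).

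Of the 4, the value of Cyp2j9 held under 36 of 37 alternatives and that of Cyp4a12a under 32, while Cyp2d12 and Cyp2j13 held under 23 and 21. With arrays averaged per number, Cyp2d12 (adjusted p = 0.18) and Cyp2j13 (adjusted p = 0.11) lost the call, and with double mutant replicate 3 also moved to the number of replicate 4 all 4 lost it (Cyp2j9 at adjusted p = 0.061, Cyp4a12a at 0.067, Cyp2j13 at 0.20 and Cyp2d12 at 0.25). Cyp4a12a was at 1.42 (adjusted p = 0.088) without wild-type replicates 1 and 2, 1.62 (adjusted p = 0.055) without Pbrm1 mutant replicates 1 and 2, and 1.79 (adjusted p = 0.12) without double mutant replicates 1 to 3. Cyp2d12 reached adjusted p = 0.15 without Pbrm1 mutant replicates 3 and 4, and Cyp2j13 adjusted p = 0.15 without wild-type replicates 1 and 2. Single arrays ended the call of both as well: wild-type replicate 1 or 2, Pbrm1 mutant replicate 3, Vhl mutant replicate 3 or double mutant replicate 4 for either gene, Pbrm1 mutant replicate 4 for Cyp2d12, and Pbrm1 mutant replicate 1 or double mutant replicate 3 for Cyp2j13.

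**Figure D3:**
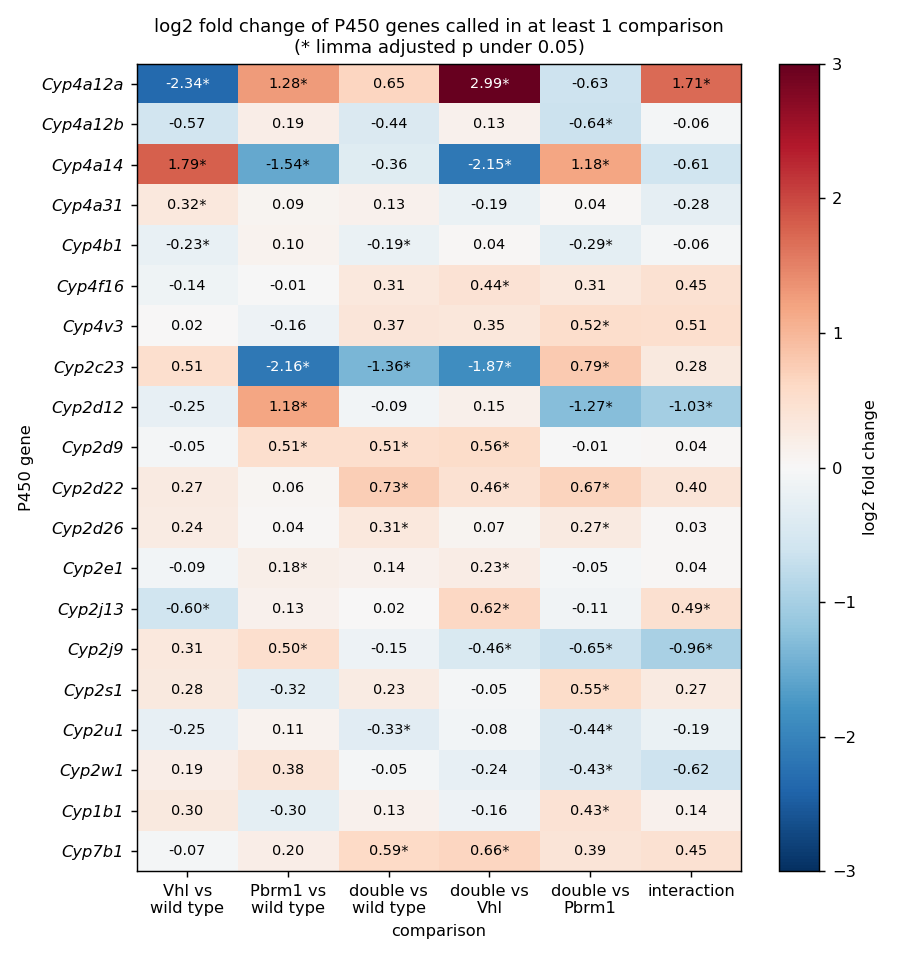
Log2 difference (colour scale) of the 20 P450 genes called in any comparison and above the low limit in every group (vertical axis) in the 6 comparisons (horizontal axis), with an asterisk where limma's adjusted p was under 0.05. Cyp4a12a and Cyp4a14 have opposite colours in both single mutants, and Cyp2c23 is lower in Pbrm1 mutants against wild type and in double mutants against wild type and Vhl mutants.

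**Figure D4:**
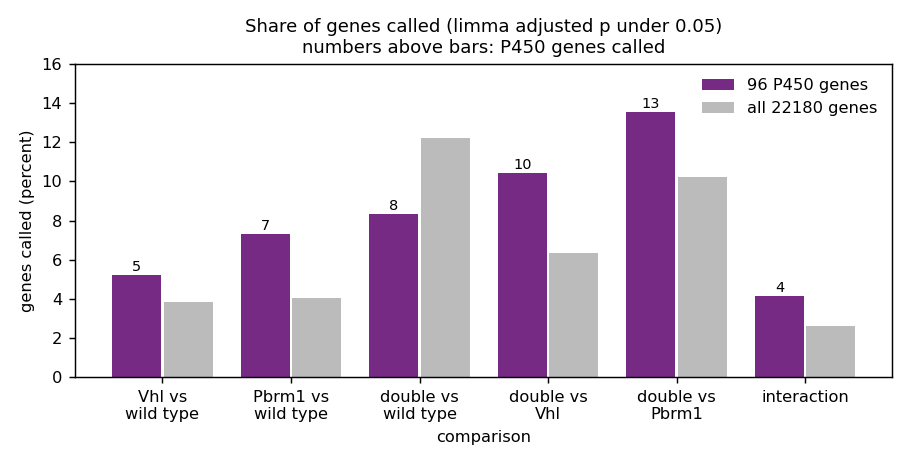
Percent of genes called (vertical axis) in each comparison (horizontal axis) for the 96 P450 genes and for all 22180 genes, with the number of P450 genes called above each bar. The P450 share was 5.21% to 13.5% outside the interaction. It was above that of all genes in 5 of 6 comparisons and below it for double mutants against wild type (8.33% against 12.2%). The comparisons share arrays, and the difference in shares was not tested.

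None of the 4 vitamin D genes was called in any comparison. For Cyp24a1 and Cyp27b1 the wild-type, Vhl mutant and Pbrm1 mutant arrays split by description number. The double mutant arrays did not: the gap between numbers was 0.14 for Cyp24a1 and 0.38 for Cyp27b1. The largest spread within a number there was 0.58 and 0.99. Cyp24a1, the hydroxylase that inactivates vitamin D, read 8.18, 8.31, 9.53 and 9.47 in wild type, 9.68, 9.80, 9.36 and 9.49 in Vhl mutants, 7.88, 7.75, 10.13 and 9.97 in Pbrm1 mutants, and 9.17, 9.34, 9.75 and 9.56 in double mutants. The pairs of a number were 2.23 apart in Pbrm1 mutants and 1.25 apart in wild type, while arrays of 1 number differed by at most 0.16 and 0.13 in these groups. Differences from wild type were 0.71 ± 0.42 in Vhl mutants (adjusted p = 0.44), 0.06 ± 0.42 in Pbrm1 mutants (adjusted p = 0.97) and 0.58 ± 0.42 in double mutants (adjusted p = 0.47).

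Cyp27b1, which makes the active hormone, stood at 6.82, 6.62, 7.86 and 7.74 in wild type, 7.21, 7.60, 7.92 and 8.19 in Vhl mutants, 8.52, 8.40, 7.53 and 7.60 in Pbrm1 mutants, and 6.92, 6.94, 7.91 and 7.63 in double mutants. In Pbrm1 mutants the number with low Cyp24a1 had high Cyp27b1, whereas in wild type the number with low Cyp24a1 had low Cyp27b1. The differences of Cyp27b1 from wild type were 0.47, 0.75 and 0.10 ± 0.30 in the Vhl, Pbrm1 and double mutants (adjusted p = 0.49, 0.20 and 0.90). Cyp27a1, a sterol side chain hydroxylase that also acts on vitamin D, was higher on all 4 Pbrm1 mutant arrays (7.78 to 7.91) than on all wild-type arrays (7.52 to 7.75), but its difference of 0.20 ± 0.09 did not pass (adjusted p = 0.27). Cyp2r1, which carries out the first hydroxylation of vitamin D, had group means of 5.0, 5.19, 5.24 and 5.19.

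**Figure D5:**
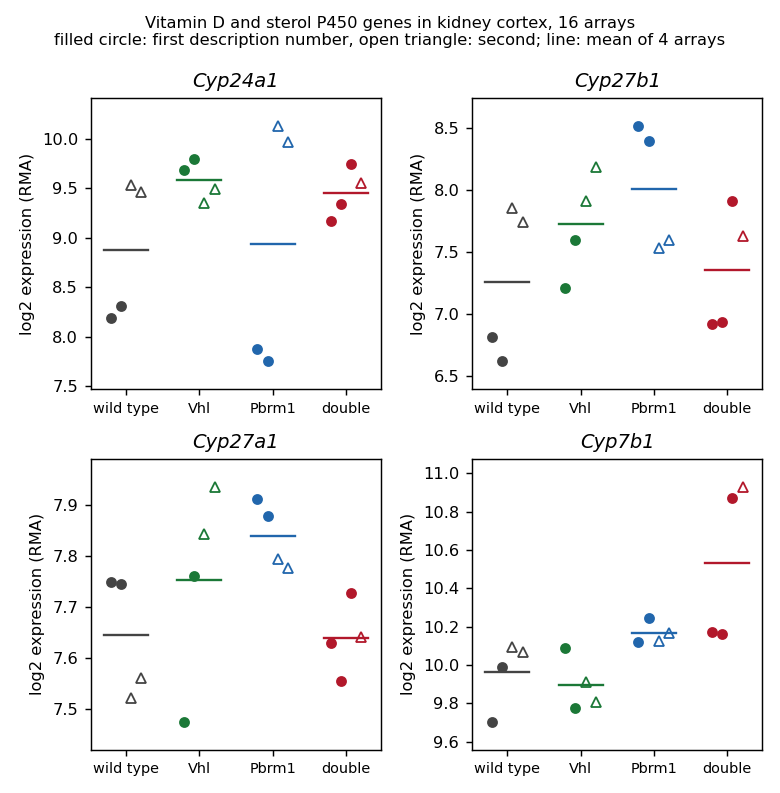
Log2 expression of Cyp24a1, Cyp27b1, Cyp27a1 and Cyp7b1 on each of the 16 arrays (vertical axis, its range set for each gene) by genotype (horizontal axis); filled circles are arrays with the one description number of a group, open triangles those with the other, and lines are means of 4 arrays. Cyp24a1 in Pbrm1 mutants lay at 7.75 and 7.88 for the one number and at 9.97 and 10.13 for the other, and Cyp7b1 in double mutants had replicate 3 (10.87), a filled circle, beside replicate 4 (10.93).

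Gaps between the 2 numbers of a group were more frequent among P450 genes than among all genes. Not every such gap is a split into tight pairs. In Vhl mutants the gap was 0.59 for Cyp2b10 and 0.60 for Cyp4a12a, with spreads of up to 0.96 and 1.11 within a number. Genes below the low limit are counted too, such as Cyp3a16 with a gap of 0.54 in Vhl mutants. A gap of over 0.5 between the means of the 2 numbers was found for 11 of 96 P450 genes in wild type against 2.18% of all genes, for 10 in Vhl mutants against 2.03%, and for 5 in Pbrm1 mutants against 1.77%. At least 1 of these 3 groups had such a gap in 20 of the 96, or 20.8%, against 5.29% of all genes. Cyp2d12 (0.90 in Vhl mutants) and Cyp27b1 (1.08 in wild type and 0.89 in Pbrm1 mutants) were among them, beside the gaps of Cyp24a1, Cyp4a14 and Cyp2c23 given above. No test was made of this excess, and the numbers and letters of the descriptions are not explained in the labels.

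The remaining families had few calls. Cyp1a1 and Cyp1a2, dioxin-inducible genes, had group means of 3.73 to 4.12 and 4.13 to 4.39 and were called nowhere. Cyp2j5, an abundant epoxygenase of the proximal tubule, had means of 12.23, 12.25, 12.35 and 12.29 in wild-type, Vhl, Pbrm1 and double mutant arrays and was not called. Cyp46a1, which hydroxylates cholesterol, and Cyp39a1, which acts on oxysterols, had means of 5.40 to 5.65 and 6.36 to 6.44 with no call, and neither did the 3 retinoid genes, of which Cyp26b1 was at 4.76 to 5.23. Of the steroid hormone genes, Cyp11a1, the side chain cleavage enzyme, stood at 4.08 to 4.13, and Cyp17a1, Cyp11b1, Cyp11b2 and Cyp21a1 were below the low limit in all groups.

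Genes that serve the P450 enzymes were read from lists. Of 12 measured electron donors and heme synthesis genes, 0 rose and 2 fell in Vhl mutants, 2 rose and 1 fell in Pbrm1 mutants, and 2 rose and 4 fell in double mutants, beside 3.84%, 4.04% and 12.2% of all genes called in these comparisons. Alas1, the rate-limiting enzyme of heme synthesis, fell by 0.59 in Vhl, 1.01 in Pbrm1 and 1.12 in double mutants (adjusted p = 0.019, 1.4e-04 and 1.1e-05). It stood at 10.76, 10.66, 10.31 and 10.40 in wild type and at 9.58, 9.70, 10.19 and 10.29 in Vhl mutants. In Pbrm1 mutants it stood at 9.69, 9.69, 9.33 and 9.37, and in double mutants at 9.49, 9.58, 9.41 and 9.21. Every mutant array was below every wild-type array. Wild type and Vhl mutants split by number, and the highest Vhl mutant array (10.29) lay close to the lowest wild-type array (10.31). Alad, the next enzyme of heme synthesis, rose by 0.46 in Pbrm1 and 0.84 in double mutants (adjusted p = 0.0011 and 2.0e-07). Whether the calls of Alas1, Alad and the other listed genes hold under the alternative settings was not examined.

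The 28 PPAR-alpha targets outside the P450 family, a list read because Cyp4a14 belongs to that program, had 1 member that rose in Vhl mutants (Acot2, 0.47) and none that fell. In Pbrm1 mutants 1 rose (Fabp3) and 1 fell (Slc25a20, by 0.50), and in double mutants 2 rose and 6 fell, among them Plin2, a lipid droplet coat protein, by 1.27 (adjusted p = 8.5e-10). Their medians were 0.01, -0.05 and -0.11. Over all genes 3.84%, 4.04% and 12.2% were called in the Vhl, Pbrm1 and double mutants, the shares against which the counts of all lists in this paragraph are to be read. Of 23 nuclear receptors and sensors, 1 rose and 1 fell in Vhl mutants, 0 were called in Pbrm1 mutants, and 2 rose and 3 fell in double mutants. Hnf4a, a main activator of proximal tubule and liver genes, fell by 0.28 in Vhl and by 0.38 in double mutants, and Ahr, the dioxin receptor, rose in both. Of 15 genes of arachidonic acid and epoxide handling, 0 were called in Vhl mutants, 1 fell in Pbrm1 mutants (Ephx1), and 3 rose and 2 fell in double mutants, with Ephx2, the soluble epoxide hydrolase, falling by 0.48.

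Cyp4a12a is male-dominant and Cyp4a14 female-dominant in mouse kidney, so other genes with a sex difference there were listed as well. Of 8 male-dominant genes outside the P450 family, 1 rose (Abcc3) and 2 fell (Slc7a13 and Mep1b) in Vhl mutants, 1 rose (Kap) in Pbrm1 mutants, and 1 rose (Mep1b) and 2 fell (Slc22a12 and Slc7a13) in double mutants. Of 6 female-dominant genes, 1 rose in Vhl mutants (Abcc4), and in Pbrm1 mutants 1 rose (Akr1c18, by 2.28) and 1 fell (Gsta4), and in double mutants 1 rose (Slc7a12) and 1 fell (Slco1a6). Proximal tubule markers moved as follows: 2 of 14 fell in Vhl mutants, 3 rose in Pbrm1 mutants, and 1 rose and 6 fell in double mutants. The shares of all genes called, for these lists too, were 3.84% in Vhl, 4.04% in Pbrm1 and 12.2% in double mutants.

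The 6 comparisons together made 47 calls of P450 genes. How many calls stayed among all genes is not given, so the counts that follow do not single out P450 genes. With the arrays of a number averaged to 1 value, 25 of the 47 stayed called. Without the 3 arrays highest in adipose markers of their groups, 30 stayed called, among them Cyp4a12a and Cyp4a14 in both single mutants and Cyp2c23, Cyp2d12 and Cyp2j13 in the comparisons with wild type given above.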

How the data were processed

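The deposited table holds log2 expression of 41345 probe sets on 16 arrays, which the authors made by RMA. The software was Affymetrix Expression Console, version 1.4, according to the submitters' processing notes. The array's genome build is not given in the sources used here. Gene symbols came from the platform annotation: 23521 probe sets with 1 symbol were kept, and 1814 with several and 16010 with none listed were left out. No value column was unused (0). No filter on low values was applied. Precision is limited by the number of arrays: a typical (median) standard error was 0.115 for a single-mutant difference and 0.163 for the interaction.

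The linear model, in limma 3.58.1 (R 4.3.3), had group means as fixed effects, the description number as a random block (correlation 0.0838), eBayes with a trend (prior degrees of freedom 7.73, residual 12) and Benjamini-Hochberg adjustment over 22180 genes. The double mutant mean therefore weights replicate 4 more, and differences with that group depart slightly from those of plain means. Tables and figures were made with matplotlib 3.10.9, numpy 2.4.6 and pandas 2.3.3 under Python 3.11.15. The fit was checked on simulated data. The members, the gene lists and the rule for named genes were chosen with earlier results of these data known. By that rule, full values are given for the called members of largest change in each comparison (up to 10 in each direction) and for a fixed list of kidney P450 genes. Alternatives were no block, the replicate number as a block, arrays averaged per number, double mutant replicate 3 merged with replicate 2 or moved, quantile normalization, centring, averaging all probe sets of a gene, dropping low genes, no trend, array weights, only the groups compared, and leaving out each array or number.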

Additional observations from a re-analysis of the deposited data

Results flagged for a closer look

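Among 138 sets of 4 arrays (named P450 genes above the low limit, by group), 4 held an array whose gap to the nearest of the others took over 0.83 of the group's range, and chance flags about 1 in 20 groups. These were the lowest Vhl mutant array for Cyp2a5 (4.10), the lowest wild-type array for Cyp2j11 (9.56), the lowest Vhl mutant array for Cyp2j5 (12.1) and the highest Pbrm1 mutant array for Cyp2w1 (5.34). None of the first 3 genes was called in any comparison.

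For 4 genes the interaction in limma, the departure of the double mutants from the sum of the single mutant differences, passed the threshold with the arrays as deposited. Wild type alone lacked the mixed background, so strain and genotype cannot be told apart here. The interaction was 1.71 for Cyp4a12a (adjusted p = 0.016), 0.49 for Cyp2j13 (adjusted p = 0.029), -0.96 for Cyp2j9 (adjusted p = 0.0026) and -1.03 for Cyp2d12 (adjusted p = 0.030). With arrays averaged per description number Cyp2d12 and Cyp2j13 no longer passed (adjusted p = 0.18 and 0.11), and with double mutant replicate 3 also moved to the other number none of the 4 passed, at adjusted p between 0.061 and 0.25.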

How the results depend on the processing

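The 47 calls gave 1781 values under the alternatives: 1547 kept direction and threshold, 234 kept direction only and 0 reversed, and 15 calls held under every alternative run. How many of all genes were called under each alternative is not given here, so the counts below do not show a change particular to P450 genes. Counts of called P450 genes outside 1.5 times the main count were as follows. With arrays averaged per number, they were 2 for Vhl, 3 for Pbrm1 and 5 for double mutants against wild type, 7 for double against Pbrm1 mutants and 2 for the interaction. With double mutant replicate 3 also moved to the number of replicate 4, a choice made after seeing the data, the 6 counts were 2, 3, 2, 4, 7 and 0, and 18 of the 47 calls remained. Without trend the counts were 3 for Vhl mutants and 2 for the interaction. Without the 3 arrays high in adipose markers, also chosen after seeing the data, double against Pbrm1 mutants gave 7 and the interaction 1. Fewer values entered the averaged and reduced fits; for the trend the cause was not tested. Leaving out each array or number gave 3 to 6 for Vhl, 2 to 8 for Pbrm1 and 5 to 11 for double mutants against wild type, 7 to 11 and 7 to 14 for double against Vhl and Pbrm1 mutants, and 2 to 8 for the interaction. The lowest were without wild-type replicates 1 and 2 (3), Pbrm1 mutant replicates 3 and 4 (2 and 7) and double mutant replicates 1 to 3 (5), where the lone array is assumed to vary like the other groups. With the replicate number as a block the counts were 7, 9, 9, 11, 13 and 5, and 46 of 47 calls remained, all but that of Cyp3a25. The replicate numbers do not pair the arrays, since the 24 same-number correlations lay between -0.07 and 0.06, and 6 were the best match.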
